A study of Arabidopsis thaliana with 32 samples.

Results

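The transcripts followed here are those of 10 Arabidopsis thaliana genes known for high levels in darkness and low levels when sugar is plentiful. They were chosen by locus identifier: ASN1 (AT3G47340), DIN1 (AT4G35770), DIN10 (AT5G20250), DRM1 (AT1G28330), DRMH1 (AT2G33830), BT2 (AT3G48360), BZIP1 (AT5G49450), AT3G15450, EXL1 (AT1G35140) and AKINBETA1 (AT5G21170). The choice was made with earlier results of these data known. Counts of the 10 genes set beside shares of all genes therefore describe them and are no independent support. All 10 were found among the 32310 loci listed in both deposited tables, and all passed the filter on low values. A gene's level is its annotated transcripts' summed FPKM, that is, sequenced fragments scaled by transcript length and by the library's total.

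The study sequenced RNA of whole seedlings of the Col-0 accession. Every seedling grew on Murashige and Skoog plates for 8 days at 24 °C under long days, with 16 h of light and 8 h of dark. One group then went into continuous light, in which no hour is dark, and the other stayed in long days, for 2 more days per the labels' protocols, whereas the series' design text speaks of 1 day. Each group gave 16 libraries, a single one at each sampling time, 3 h apart, the first at 2 h and the last at 47 h. The labels do not state whether libraries are separate cultures, and p-values therefore measure only the scatter among these libraries. Whether the plates held sugar is not stated in the labels.

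Darkness stops photosynthesis, and a seedling then lives on sugar and on starch stored by day. When carbon runs short, the protein kinase SnRK1 raises transcripts that serve the breakdown of amino acids and other reserves and lowers those for growth, in part through bZIP transcription factors, whereas sugar holds many of the same transcripts down. The circadian clock times starch breakdown in Arabidopsis leaves so that the reserve lasts until dawn.

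Of the whole-seedling markers, the leaf gene RCA lay between 349 and 3376 FPKM and the root gene PYK10 between 2086 and 3817 FPKM over all libraries. The petal and stamen gene AP3 did not exceed 0.30 FPKM. The leaf gene RBCS1A, with a median of 3620 FPKM in continuous light and 2426 FPKM in long days, was at 8.86 FPKM in the long-day library at 41 h. The leaf gene GAPB was listed at 0 in every library and CA1 at or below 24.97 FPKM. Both tables also list transcripts assembled from the reads, which these annotated sums leave out. The seed storage gene CRA1 ranged from 139 to 1774 FPKM. In whole seedlings, fewer cells of a type and less RNA per cell cannot be told apart.

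The sequence before the start of transcription is shown for ASN1, DIN1, DRMH1 and EXL1, which stand for a fall in the subjective night, opposite changes in the regimes, the widest cycle in continuous light and a rise at lights-off. Each stretch holds the 250 bases before the start of the most abundant annotated transcript, read 5′ to 3′ on the gene's strand from the RefSeq assembly TAIR10.1, at chr3:17441432-17441681 (minus strand), chr4:16944628-16944877 (plus strand), chr2:14310609-14310858 (minus strand) and chr1:12851733-12851982 (plus strand). Capitals mark CACGTG (the G-box), AAAATATCT (the evening element), TATCCA and GATAAG on either strand; the stretch of EXL1 held none of them.
ASN1: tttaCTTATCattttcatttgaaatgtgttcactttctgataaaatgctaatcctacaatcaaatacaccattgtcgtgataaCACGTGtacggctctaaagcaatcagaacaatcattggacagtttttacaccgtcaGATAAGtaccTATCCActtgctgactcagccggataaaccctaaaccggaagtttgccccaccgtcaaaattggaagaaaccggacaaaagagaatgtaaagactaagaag
DIN1: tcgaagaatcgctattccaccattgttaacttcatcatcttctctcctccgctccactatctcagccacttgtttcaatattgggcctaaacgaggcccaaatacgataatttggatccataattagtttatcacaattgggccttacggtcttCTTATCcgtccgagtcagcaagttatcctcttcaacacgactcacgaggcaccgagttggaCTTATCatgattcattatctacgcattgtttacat
DRMH1: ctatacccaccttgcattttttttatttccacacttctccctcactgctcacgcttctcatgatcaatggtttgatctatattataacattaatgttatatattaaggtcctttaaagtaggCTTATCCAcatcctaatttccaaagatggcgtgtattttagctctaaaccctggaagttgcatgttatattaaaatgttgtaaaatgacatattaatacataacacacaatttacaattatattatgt
EXL1: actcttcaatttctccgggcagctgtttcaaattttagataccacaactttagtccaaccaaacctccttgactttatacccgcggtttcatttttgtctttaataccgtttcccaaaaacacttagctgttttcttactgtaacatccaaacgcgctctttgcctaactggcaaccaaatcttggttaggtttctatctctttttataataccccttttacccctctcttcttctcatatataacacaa
Letters were counted on both strands in the window from 250 bases before to 50 after the start, in 18036 genes. ASN1 alone among the 10 genes held the G-box, at 167 bases before and 37 after the start, and 9.20% of all windows hold it. ACGT, the core of many bZIP binding sites, was in 5 of the 10 windows (ASN1, DIN10, DRMH1, AT3G15450 and AKINBETA1) and in 50.5% of all; each G-box holds it. The evening element, a motif of clock-controlled evening genes, was in the window of DRM1, and in 2.93% of all. TATCCA was in 6 of the 10 windows (ASN1, DIN1, DRMH1, BT2, BZIP1 and AKINBETA1) and in 16.4% of all. GATAAG was in 6 of the 10 windows (ASN1, DIN1, DRM1, DRMH1, BZIP1 and AT3G15450) and in 15.2% of all. TATCCA and GATAAG overlap where the letters read CTTATCCA, as in DRMH1. ACTCAT, a motif known from hypoosmolarity-responsive promoters, was in the window of EXL1, after the start, and in 13.9% of all. A match describes letters and not a binding site.

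**Figure D1:**
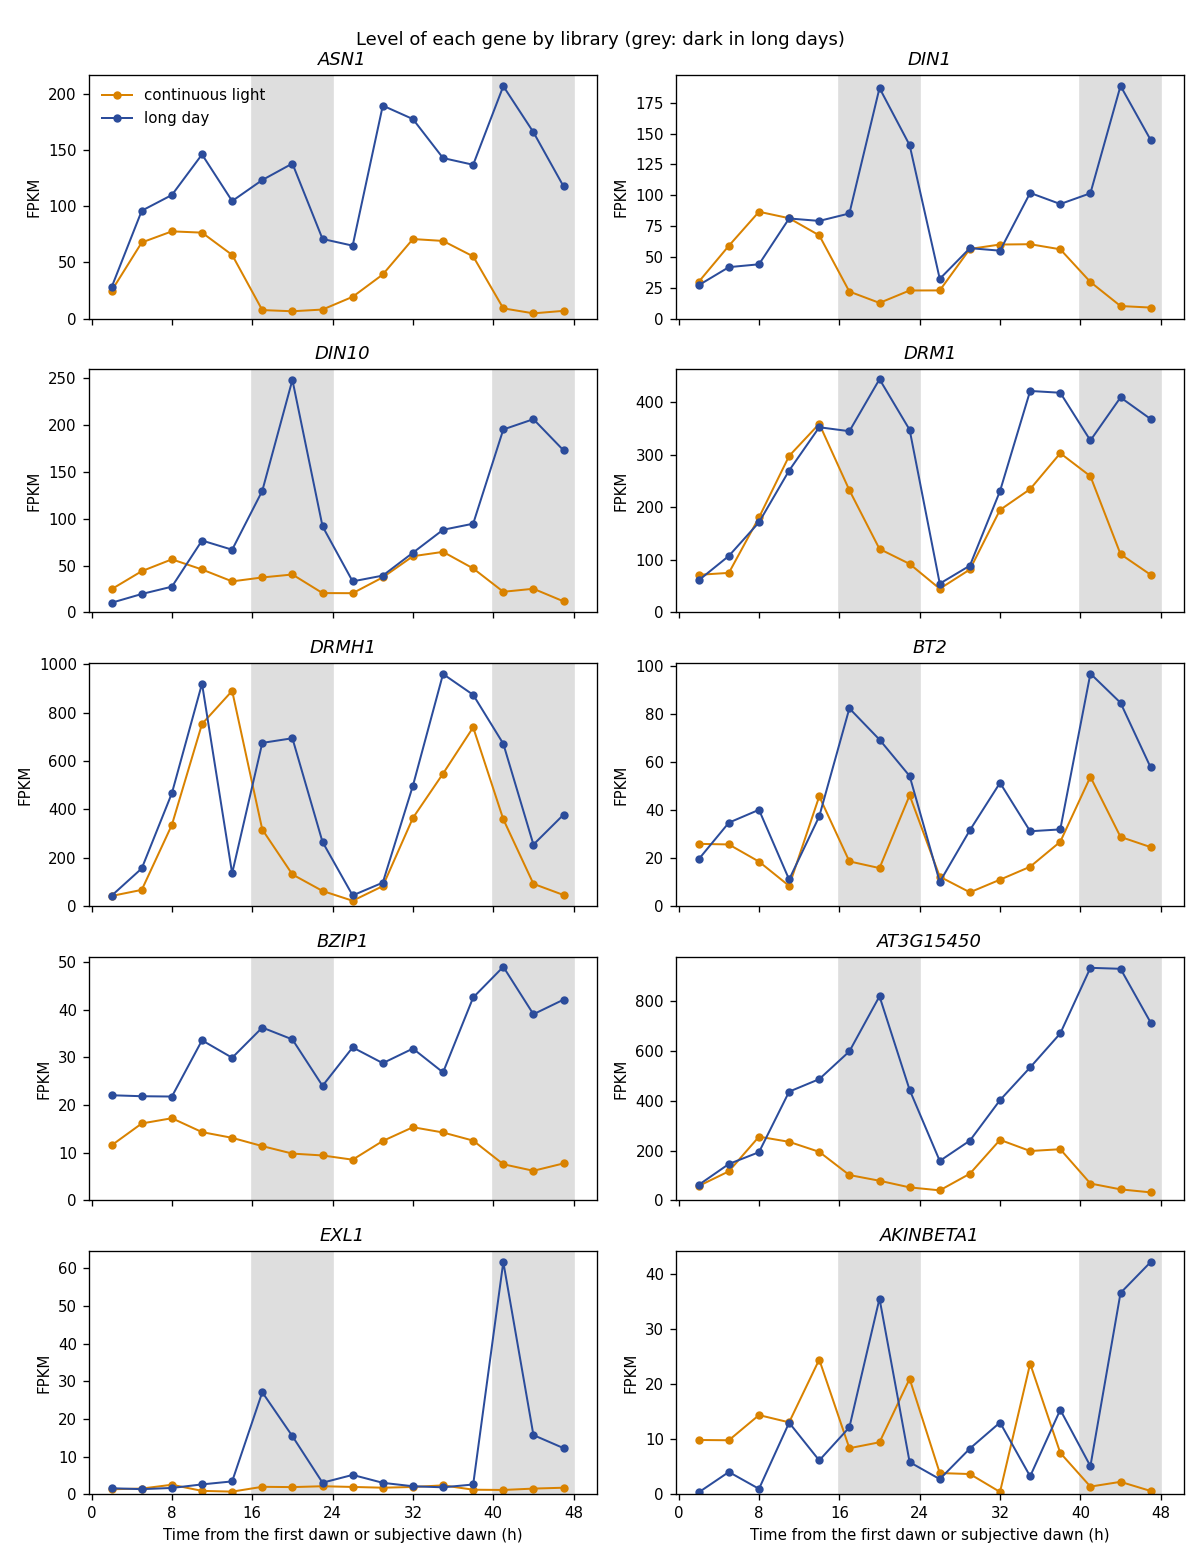
FPKM (vertical axis, linear, from 0) of each gene against time from the first dawn or subjective dawn (h), 1 point per library, continuous light in orange and long days in blue, with the dark hours of long days in grey. ASN1 falls to 4.62 to 9.06 FPKM in the subjective night of continuous light and stays at 70.9 FPKM or more in the dark of long days, and EXL1 leaves its low level only from 17 h and 41 h in long days.

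The question put by the design is how a gene behaves in the same hours of the day when they are dark and when they are lit. The 6 libraries at 17, 20, 23, 41, 44 and 47 h, dark in long days, were set against the other 10 within each table, on log2(FPKM + 1), with limma and Benjamini-Hochberg adjustment over all genes tested; the call was at an adjusted p under 0.05. In long days 5 of the 10 genes rose in the dark hours (DIN1, DIN10, BT2, AT3G15450 and EXL1) and 0 fell, against 9.57% of all tested genes that rose and 2.11% that fell. In continuous light 3 fell in those hours (ASN1, DIN1 and BZIP1) and 0 rose, against 1.08% of all tested genes that fell and 2.67% that rose. The night contrast was higher in long days than in continuous light for 6 genes (ASN1, DIN1, DIN10, BZIP1, AT3G15450 and EXL1) and lower for 0, against 2.86% of all tested genes that were higher and 0.861% that were lower. The median difference of the contrast was 2.31 (log2) over the 10 genes and 0.04 over all genes. The fit had no term for hour of day within the night or day hours. Its error therefore also holds changes over those hours. The direction of calls over all genes depended on the scaling of libraries: in long days 81.9% of calls were higher at night, and 60.4% after rescaling to equal medians; in continuous light 71.2%, and 45.7% after quantile normalization. Every called night contrast of the 10 genes kept its direction under both scalings.

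**Figure D2:**
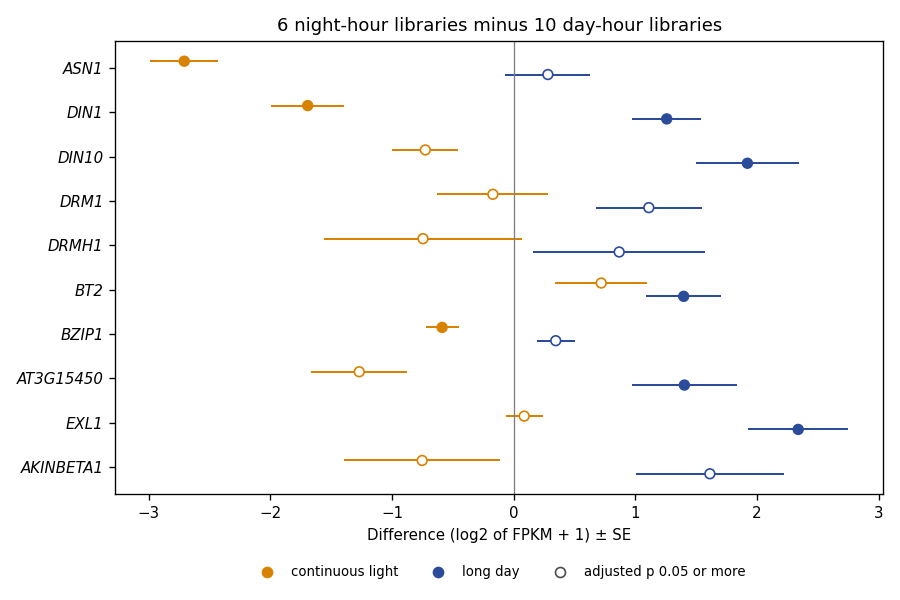
Night-hour minus day-hour level (horizontal axis, difference of log2(FPKM + 1)) for each gene, with SE bars from limma, 6 libraries against 10 per regime; filled points passed adjusted p under 0.05. ASN1 lies at -2.71 in continuous light and at 0.28 in long days, and EXL1 at 0.09 and 2.34.

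A curve with a period of 24 h described 7 of the 10 genes in continuous light (limma, moderated F test; 23% of all tested genes) and 7 of 10 in long days (24.5% of all tested genes), though not the same 7. ASN1 was called in continuous light only and EXL1 in long days only, and BT2 and AKINBETA1 in neither. The shape of the rhythm differed between regimes for 6 genes (ASN1, DIN1, DIN10, BZIP1, AT3G15450 and EXL1), against 4.91% of all tested genes. The called peaks in continuous light lay between 8.86 h and 13.4 h after subjective dawn, in the lit hours of a long day. The called peaks in long days lay between 14.3 h and 18.9 h after dawn, from shortly before lights-off into the dark.

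**Figure D3:**
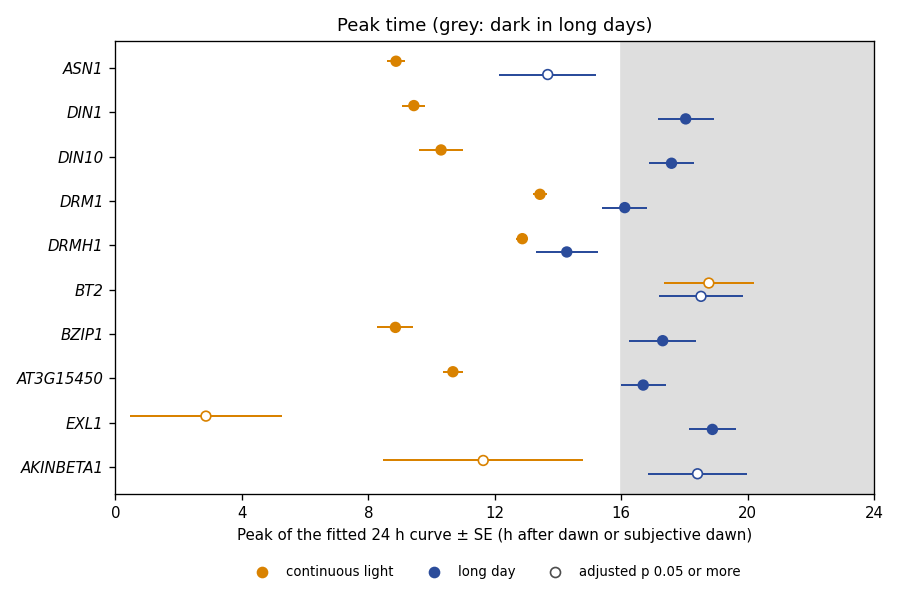
Time of the peak of the fitted 24 h curve (horizontal axis, h after dawn or subjective dawn) for each gene, with SE bars, continuous light in orange and long days in blue, dark hours of long days in grey; filled points passed adjusted p under 0.05. For each of the 6 genes called in both regimes the long-day peak is later, by the least in DRMH1 (12.9 h and 14.3 h).

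Among the genes of nitrogen and carbon metabolism, ASN1 encodes glutamine-dependent asparagine synthetase, which stores nitrogen in the carbon-poor amino acid asparagine. It lies on chromosome 3, 17437840 to 17441431, on the minus strand. In continuous light its 10 day-hour libraries ran from 19.3 to 77.6 FPKM with a median of 62.2, and its 6 night-hour libraries from 4.62 to 9.06 FPKM with a median of 7.19. Every night-hour library was below every day-hour library, which 0.27% of all tested genes also show. The contrast fell by 2.71 ± 0.28 (log2 ± SE; adjusted p = 0.000222, limma), and the fitted rhythm ran 14.5-fold from trough to peak with its peak at 8.88 ± 0.28 h.

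In long days the night-hour libraries of ASN1 ran from 70.9 to 207.0 FPKM (median 131) and the day-hour libraries from 27.9 to 190 FPKM (median 123). The groups overlapped almost fully, and the contrast of 0.28 ± 0.35 did not pass (adjusted p = 0.676, limma). The difference between regimes was 2.99 ± 0.46 (adjusted p = 0.000217, limma). At 44 h it stood at 4.62 FPKM in continuous light and at 166 FPKM in long days.

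DIN1, also called SEN1, encodes a chloroplast protein with a rhodanese-like sulfurtransferase domain and is a marker of dark treatment and leaf senescence (chromosome 4, 16944878 to 16946266, plus strand). In continuous light it ran from 22.8 to 86.6 FPKM (median 59.5) in day hours and from 8.89 to 29.6 FPKM (median 17.3) in night hours. In long days it ran from 27.0 to 102 FPKM (median 56.0) in day hours and from 85.2 to 189 FPKM (median 143) in night hours. The day-hour medians of the regimes lay close together and the night-hour medians far apart, with an overlap of a few libraries within each regime. DIN1 was the only one of the 10 genes with a call in both regimes and opposite directions. It fell in continuous light by 1.69 ± 0.30 (log2, adjusted p = 0.00506, limma) and rose in long days by 1.26 ± 0.28 (adjusted p = 0.00988). DIN10 and AT3G15450 also rose in long days and had a negative contrast in continuous light, which did not pass. The fitted peak of DIN1 moved from 9.44 ± 0.37 h, in continuous light, to 18.0 ± 0.88 h with dark nights (adjusted p of the rhythm difference 0.000107, limma).

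DIN10, of the raffinose synthase family, lies on chromosome 5, 6833564 to 6836862, plus strand. In continuous light it ran from 20.5 to 64.5 FPKM (median 44.9) in day hours and from 11.8 to 40.5 FPKM (median 23.6) in night hours. In long days it ran from 10.4 to 94.5 FPKM (median 51.4) by day and from 91.7 to 248 FPKM (median 184) at night. The long-day groups overlapped in a single pair of libraries, the dark one at 23 h, at 91.7 FPKM, and the lit one at 38 h, at 94.5 FPKM. The rise in long days was 1.92 ± 0.42 (log2; adjusted p = 0.00853, limma), the contrast in continuous light was -0.73 ± 0.27 (adjusted p = 0.162), and the difference was 2.65 ± 0.52 (adjusted p = 0.00274).

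Of the regulators, BZIP1 is a transcription factor of the S1 group of bZIP proteins that acts under low energy (chromosome 5, 20051829 to 20052735, plus strand). It changed little in size beside the other genes. In continuous light it ran from 8.53 to 17.2 FPKM (median 13.7) in day hours and from 6.20 to 11.4 FPKM (median 8.58) in night hours; in long days from 21.8 to 42.6 FPKM (median 29.3) and from 24.0 to 48.99 FPKM (median 37.6). The groups overlapped in both regimes. It fell by 0.59 ± 0.14 (log2) in the night hours of continuous light (adjusted p = 0.0255, limma); the call was lost without the library at 44 h (-0.51, adjusted p = 0.0712) or at 47 h (-0.56, adjusted p = 0.0539). The long-day contrast was 0.35 ± 0.16 (adjusted p = 0.174), and the difference 0.93 ± 0.21 (adjusted p = 0.01). Its long-day rhythm (adjusted p = 0.0409) was lost in 9 of the 16 fits without 1 library (adjusted p up to 0.102) and after rescaling to equal medians (0.171) or quantile normalization (0.157).

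BT2 encodes a protein with BTB and TAZ domains that works with a cullin ubiquitin ligase and in nitrate and sugar responses (chromosome 3, 17907767 to 17910738, minus strand). In long days its night-hour libraries ran from 54.3 to 96.9 FPKM (median 75.9) and its day-hour libraries from 10.2 to 51.4 FPKM (median 31.9). Every night-hour library was above every day-hour library, which 2.24% of all tested genes also show. The rise was 1.40 ± 0.31 (log2; adjusted p = 0.00847, limma). In continuous light it ran from 15.9 to 53.9 FPKM (median 26.8) in night hours and from 5.87 to 45.8 FPKM (median 17.6) in day hours, with no call (0.72 ± 0.38, adjusted p = 0.353).

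The annotated rows held only part of BT2: with the transcripts assembled at its locus alone, its mean went from 24.1 to 62.4 FPKM in continuous light and from 46.6 to 160 FPKM in long days. On those sums the night hours of long days ran from 216 to 337 FPKM and the day hours from 25.9 to 187 FPKM, so the groups again did not overlap. The rise was then 2.07 ± 0.37 (log2; adjusted p = 0.00183, limma), and BT2 became rhythmic in both regimes, with peaks at 15.9 h in continuous light (5.63-fold) and 17.8 h in long days (8.95-fold). The difference between regimes did not pass with either sum (0.68 ± 0.50, adjusted p = 0.564, and 1.25 ± 0.60, adjusted p = 0.245).

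AKINBETA1 encodes a beta subunit of SnRK1 (chromosome 5, 7205477 to 7208613, plus strand). Its annotated rows jumped between neighbouring time points, from 0.42 to 24.4 FPKM in continuous light and from 0.35 to 42.1 FPKM in long days, and no night contrast passed. In both tables AKINBETA1 lies in an assembled gene that merges it with 2 other loci. With all assembled transcripts that overlap it, an addition made after the data were seen, it ran from 31.8 to 81.0 FPKM in the night hours of long days and from 22.9 to 38.4 FPKM in the day hours. The groups then overlapped in few libraries, with a rise of 0.86 ± 0.18 (log2; adjusted p = 0.00548, limma) and a difference between regimes of 1.09 ± 0.23 (adjusted p = 0.00433). That sum can hold reads of the neighbours.

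DRM1 (chromosome 1, 9933786 to 9935440, minus strand) and DRMH1 (chromosome 2, 14308754 to 14310608, minus strand) encode dormancy-associated proteins. Transcripts of this family accumulate in dormant buds and in tissues that have stopped growing. In continuous light DRM1 ran from 45.2 to 359 FPKM and DRMH1 from 23.2 to 890 FPKM, both lowest at 26 h and highest at 14 h. They moved together over the 16 libraries of continuous light (Pearson r = 0.985, a description, since all genes share library and time). Their peaks fell at 13.4 ± 0.24 h for DRM1 (5.50-fold) and at 12.9 ± 0.19 h for DRMH1 (22.9-fold), later than those of ASN1, DIN1 and DIN10. Neither gene's night contrast passed in either regime, in a test whose error also holds this rhythm within the day and night hours.

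In long days DRM1 ran from 54.9 to 444 FPKM, with 327 FPKM or more in all 6 dark libraries, and peaked at 16.1 ± 0.72 h. DRMH1 ran from 44.2 to 959 FPKM. Its library at 14 h stood apart at 137 FPKM, between 919 FPKM at 11 h and 675 FPKM at 17 h, and with all assembled transcripts that overlap the locus it read 552 FPKM. In long days DRMH1 lies in an assembled gene that merges it with 3 other loci. Its long-day rhythm (7.36-fold, adjusted p = 0.0278, limma) was lost without the library at 2 h, 26 h, 29 h or 38 h (adjusted p from 0.0544 to 0.0736). In continuous light both genes went on falling through the night hours, from 17 and 41 h to 23 and 47 h, by 1.58 ± 0.21 for DRM1 (log2; adjusted p = 0.00645, limma) and by 2.60 ± 0.29 for DRMH1 (adjusted p = 0.00278), 2 of 10 genes against 0.394% of all tested that fell. The call of DRM1 was lost without the library at 47 h (-1.40, adjusted p = 0.0613). In long days 0 of 10 passed that test in limma (2 at an unadjusted p under 0.05; 2.2% of all tested genes were called).

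AT3G15450, annotated as an aluminium-induced protein with YGL and LRDR motifs, is a common marker of starvation whose molecular role is unclear (chromosome 3, 5212984 to 5214124, plus strand). In long days it ran from 62.2 to 671 FPKM (median 322) in day hours and from 444 to 935 FPKM (median 768) at night. In continuous light it ran from 40.2 to 256 FPKM (median 197) in day hours and from 32.01 to 102 FPKM (median 59.8) in night hours. The main transcript AT3G15450.1 held 96.6% of the gene's FPKM in continuous light. Its night contrast there was -1.27 ± 0.40 (log2) and did not pass (adjusted p = 0.130, limma). In long days AT3G15450.1 held 96.8%, and its own rise of 1.40 ± 0.44 did not pass (adjusted p = 0.0730, limma). The regimes moved apart at night while the groups within each overlapped. The long-day rise of the whole gene, 1.40 ± 0.43 (log2, adjusted p = 0.0464, limma), was lost in 10 of the 16 fits without 1 library. These left out 5, 8, 17, 20, 26, 29, 32, 41, 44 or 47 h (adjusted p from 0.0523 to 0.105). The difference of 2.67 ± 0.60 between regimes (adjusted p = 0.00999) was kept in all 32 such fits.

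EXL1 encodes an EXORDIUM-like protein that supports growth when carbon is short (chromosome 1, 12851983 to 12853235, plus strand). In continuous light all 16 libraries lay between 0.70 and 2.53 FPKM. In long days its day hours ran from 1.36 to 5.14 FPKM (median 2.36) and its night hours from 3.07 to 61.6 FPKM (median 15.6). The overlap came from the library at 23 h, at 3.07 FPKM. Each dark period opened with the highest value, 27.1 FPKM at 17 h and 61.6 FPKM at 41 h, and ended lower, at 3.07 FPKM at 23 h and 12.2 FPKM at 47 h. The rise was 2.34 ± 0.41 (log2; adjusted p = 0.00241, limma), and the difference from continuous light 2.25 ± 0.45 (adjusted p = 0.00366). Over the 16 fits without 1 library the rise of EXL1 lay between 1.97, without the library at 41 h in which RBCS1A was low, and 2.76, with an adjusted p of at most 0.00753 (limma).

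The steps at lights-off and lights-on were tested as the means of 17 and 41 h minus 14 and 38 h, and of 2 and 26 h minus 23 and 47 h, 2 libraries each. At dusk 1 of 10 genes fell in continuous light (0.0788% of all tested genes fell): ASN1 went from 56.6 and 55.3 FPKM to 7.53 and 9.06 FPKM, with no light change at that hour. The step was -2.62 ± 0.24 (log2, adjusted p = 0.00446, limma). At an unadjusted p under 0.05 in limma, 4 of the 10 genes were lower and 0 higher in continuous light. The median step there was -0.84 over the 10 genes and 0.01 over all genes. At lights-off in long days 1 of 10 rose (0.511% of all tested genes rose): EXL1 went from 3.41 and 2.59 FPKM to 27.1 and 61.6 FPKM, a step of 3.40 ± 0.59 (adjusted p = 0.0424). The call of EXL1 was lost in 11 of the 16 fits without 1 library (all but 2, 17, 23, 26 and 47 h). Among these losses the step itself changed only without the library at 14, 38 or 41 h (3.55, 3.25 and 2.82). In the other losses the step stayed at 3.40, and only its error and the adjustment over all genes changed. The dusk step differed between regimes for ASN1 (3.04 ± 0.54, adjusted p = 0.0226), 1 of 10 against 0.121% of all tested genes; without the library of continuous light at 14, 17 or 38 h, or of long days at 14 or 41 h, that call was lost (adjusted p from 0.0654 to 0.107).

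At lights-on in long days 6 of the 10 genes fell (DIN1, DIN10, DRM1, DRMH1, BT2 and AT3G15450), against 7.14% of all tested genes that fell; over all genes 38.1% of calls were higher, and 56.6% after rescaling to equal medians. DIN1 went from 141 and 145 FPKM to 27.0 and 32.1 FPKM (-2.24 ± 0.18, log2; adjusted p = 0.000122, limma). DRM1 went from 348 and 368 FPKM to 61.2 and 54.9 FPKM (-2.60 ± 0.21; adjusted p = 0.000122). For both genes the pairs before and after dawn lay far apart. In DIN10 (-2.69 ± 0.58), DRMH1 (-2.80 ± 0.72), BT2 (-1.91 ± 0.40) and AT3G15450 (-2.49 ± 0.49) the adjusted p lay between 0.0112 and 0.0343. Without the library at 2 h 3 of the 6 calls were left, and without that at 47 h 2 of them, DIN1 and DRM1. The call of DRMH1 was also lost without the library at 8, 17, 23, 26, 32 or 41 h, and that of BT2 without 23 or 26 h (adjusted p up to 0.125).

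In continuous light 0 of 10 passed at the same hours in limma (4 at an unadjusted p under 0.05; 0.00563% of all tested genes were called), and ASN1, at 8.00 and 6.85 FPKM before and 24.8 and 19.3 FPKM after subjective dawn, had a step of 1.45 ± 0.24 (adjusted p = 0.12). The dawn step was lower in long days for 5 genes (ASN1, DIN1, DIN10, DRM1 and AT3G15450), from -2.10 ± 0.31 in DRM1 to -3.19 ± 0.69 in DIN10, against 1.79% of all tested genes. Without the long-day library at 2 h or at 47 h the count was 2, and without the continuous-light library at 47 h it was 3; AT3G15450 was also lost without the continuous-light library at 2 h. With all assembled transcripts that overlap its locus, DIN10 read 91.7 FPKM at 26 h in place of 33.1, and its long-day dawn step of -1.97 did not pass (adjusted p = 0.144).

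**Figure D4:**
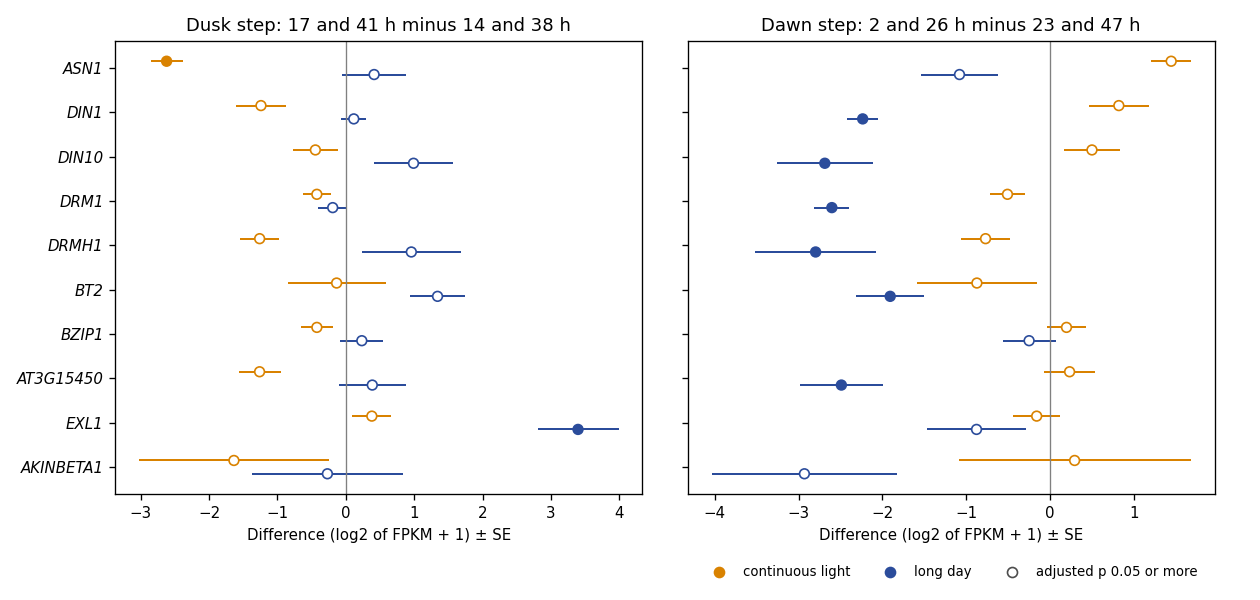
Change across dusk (left) and dawn (right) for each gene (horizontal axes, difference of log2(FPKM + 1)), with SE bars from limma, 2 libraries before and 2 after in each regime; filled points passed adjusted p under 0.05. At dusk the filled points are ASN1 at -2.62 in continuous light and EXL1 at 3.40 in long days. At dawn 6 filled long-day points lie between -2.80 and -1.91.

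The libraries 24 h apart showed that the cycles were not repeated at 1 level. From the first to the second cycle of long days 5 of 10 genes rose (ASN1, DIN1, DIN10, BZIP1 and AT3G15450), against 4.97% of all tested genes; over all genes 38.9% of calls were higher, and 57.7% after rescaling to equal medians. AT3G15450 was higher in the second cycle at all 8 hours of the day, with a mean difference of 0.67 ± 0.12 (log2; adjusted p = 0.00995, limma), and ASN1 rose by 0.62 ± 0.13 (adjusted p = 0.0154). DIN10 rose by 0.71 ± 0.19, BZIP1 by 0.38 ± 0.11 and DIN1 by 0.23 ± 0.05. In continuous light 3 of 10 fell (BZIP1 by 0.29 ± 0.07, AT3G15450 by 0.37 ± 0.10 and AKINBETA1 by 1.75 ± 0.45; adjusted p from 0.0329 to 0.0441), against 7.73% of all tested genes that fell. That of AKINBETA1 was -0.26 with all overlapping assembled transcripts (adjusted p = 0.102), and most calls of this comparison were lost in fits without 1 library. Of 16 such fits, the call was lost in 12 for BZIP1, 14 for AT3G15450 and 14 for AKINBETA1 in continuous light. In long days it was lost in 12 for DIN10, 14 for BZIP1 and 4 for DIN1, and in 0 for ASN1 and AT3G15450. Leaving out either library of a pair 24 h apart gave the same difference, so these losses come in pairs and are not separate.

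Some markers of seed, root and leaf tissue were called in this comparison, not the same ones in both regimes. In long days CRA1 fell by 1.79 ± 0.25 and OLE1 by 1.57 ± 0.21 (log2; adjusted p = 0.00299 and 0.00215, limma), 2 of 2 markers, and their summed level went from 670 to 1810 FPKM in the first cycle to 162 to 840 FPKM in the second. Of 5 root markers 1 rose and 3 fell. Of 2 tested leaf markers 0 passed in limma (1 at an unadjusted p under 0.05, higher). Over all tested genes 4.97% rose and 7.83% fell in this long-day comparison. In continuous light 2 of 5 root markers fell, TIP2-3 by 1.13 ± 0.11 and COBL9 by 0.50 ± 0.12, as did 1 of 3 tested leaf markers, CA1, by 0.51 ± 0.09, and 0 of 2 seed markers passed in limma (1 at an unadjusted p under 0.05, higher). The summed level of the root markers went from 2822 to 3717 FPKM in the first cycle of continuous light to 2438 to 3304 FPKM in the second, and that of the leaf markers from 3145 to 7786 FPKM to 3507 to 7810 FPKM. CA1 had a median of 9.56 FPKM in continuous light, against 3620 FPKM for RBCS1A, which was not called. The part of these markers in either result was not tested.

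**Figure D5:**
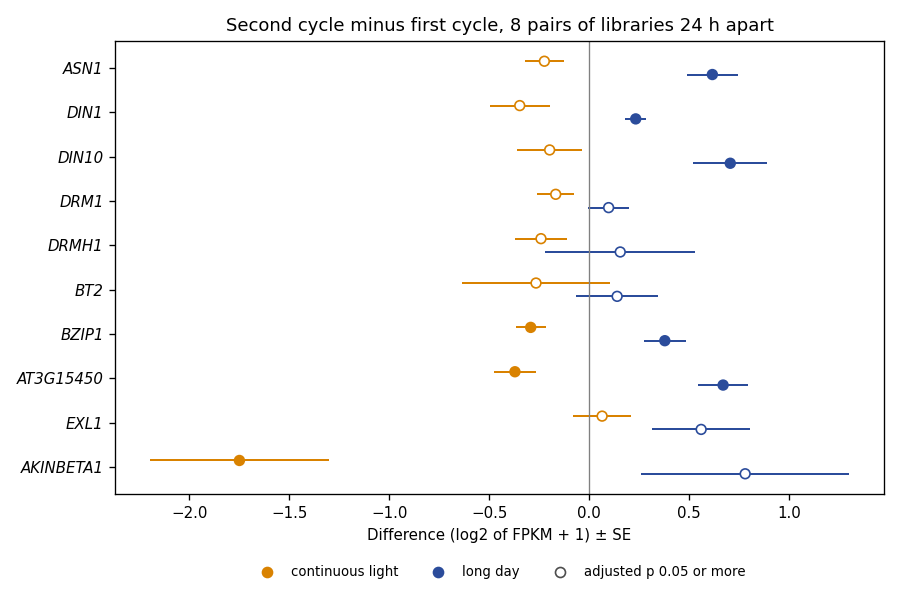
Second minus first cycle for each gene (horizontal axis, mean difference of log2(FPKM + 1) over 8 pairs of libraries 24 h apart), with SE bars from limma, continuous light in orange and long days in blue; filled points passed adjusted p under 0.05. Called long-day points lie from 0.23 (DIN1) to 0.71 (DIN10), called points of continuous light from -1.75 (AKINBETA1) to -0.29 (BZIP1).

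Levels across the regimes are given without a test, since transcripts were merged separately in each table. The mean over 16 libraries was higher in long days for all 10 genes. The share of all genes higher in long days was not computed. The counts here therefore cannot tell a trait of these genes from an offset between the tables. It was highest relative to continuous light in EXL1 (10.04 ± 15.6 against 1.66 ± 0.51 FPKM, mean ± SD, n = 16), AT3G15450 (486 ± 280 against 127 ± 81.1 FPKM) and ASN1 (126 ± 47.5 against 37.5 ± 29.3 FPKM). The ratio of means was lowest in AKINBETA1 (1.33), DRMH1 (1.47) and DRM1 (1.62), within the spread over the day. At each of the 6 night hours 9 of the genes were higher in long days, and AKINBETA1 at 5 of 6. By day the order was mixed: DIN1 was higher in long days at 5 of 10 day times and DRM1 at 6 of 10, whereas ASN1 and BZIP1 were higher at 10 of 10. By mean level, DRMH1, DRM1 and AT3G15450 were the 3 most abundant in continuous light and AT3G15450, DRMH1 and DRM1 in long days, with SDs that overlap.

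At the level of single annotated transcripts, 4 of 23 tested fell at night in continuous light and 0 rose. In long days 7 of 29 rose and 0 fell. Of all transcripts tested, 1.91% in continuous light and 5.87% in long days were called, in either direction. Transcripts of the same gene were counted separately. The fall of ASN1 was carried by AT3G47340.1 (-2.25 ± 0.27) and AT3G47340.2 (-3.18 ± 0.50), and the share of AT3G47340.2 in the gene was 38.9% in day hours and 18.9% in night hours. In BT2 AT3G48360.2 rose in the dark of long days (2.61 ± 0.52), from 19.7% of the annotated total by day to 44.6% at night. In DIN10 the rise was called for AT5G20250.1, AT5G20250.3 and AT5G20250.4, of which the last held 86.9% of the gene's FPKM in long days. In AT3G15450 and DIN1 it was called only for minor transcripts, AT3G15450.2 (2.23% of the gene in long days) and AT4G35770.6 (4.15%). The main DIN1 transcript AT4G35770.1 (59.9%) rose by 1.16 ± 0.34 and did not pass (adjusted p = 0.0544, limma). The change of shares was not tested, and the assembled transcripts of BT2 lie outside these shares.

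Other genes of the starvation response and relatives of the 10 genes were read from fixed lists, chosen with earlier results of these data known. Their counts therefore describe the lists and are no independent support. Of 18 other starvation genes tested, 4 had a higher night contrast in long days than in continuous light and 0 a lower one, against 2.86% and 0.861% of all tested genes: POX1, proline dehydrogenase (2.02 ± 0.33, log2), TPS8 (1.06 ± 0.18) and TPS9 (0.89 ± 0.18), of the trehalose phosphate synthase family, and DIN3, which serves the breakdown of branched-chain amino acids (0.58 ± 0.10). The median difference of that list was 0.63, against 0.04 over all genes. Within continuous light TPS8, TPS11 and the F-box genes KFB20 and KFB50 fell in night hours, 4 of 18, against 1.08% of all tested genes that fell. In the dark of long days POX1, TPS9 and DIN3 rose, and DIN9 (a phosphomannose isomerase gene) fell, by 0.67 ± 0.21 (adjusted p = 0.0497, limma), 3 and 1 of 18 against 9.57% of all tested genes that rose and 2.11% that fell.

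Of 23 relatives tested, 4 had a higher night contrast in long days and 0 a lower one, against the same 2.86% and 0.861%: BT4 (1.85 ± 0.51) of the BTB and TAZ family, and EXO (1.85 ± 0.43), EXL5 (1.17 ± 0.33) and EXL3 (0.74 ± 0.21) of the EXORDIUM family. EXL3 and EXL5 lost this call under equal medians and under quantile normalization. EXO also rose at lights-off in long days (3.15 ± 0.51; adjusted p = 0.0311, limma), and its profile was the one most like that of EXL1 (Pearson r = 0.948 over 32 libraries centred within each regime, among 11362 genes). In the dark of long days 6 of the 23 rose (BT1, BT4, BT5, EXO, EXL3 and EXL5) and 0 fell, against 9.57% of all tested genes that rose and 2.11% that fell; BT4 lost this call under both other scalings. At lights-on 3 of the 23 fell and 1 rose, against 7.14% of all tested genes that fell and 4.38% that rose: BT4 fell by 2.998 ± 0.43, BT1 by 1.39 ± 0.24 and AT4G27450, a relative of AT3G15450, by 0.65, while RS5, a raffinose synthase related to DIN10, rose by 1.19 ± 0.14.

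Among 6 other SnRK1 subunits, KING1 had a higher night contrast in long days (0.62 ± 0.17, adjusted p = 0.0412, limma). Over all tested genes 2.86% were higher and 0.861% lower, so 0 calls in lists this short lie near those shares. Of 8 other bZIP genes of the C and S1 groups 0 passed in limma, 0 also at an unadjusted p under 0.05. Of 6 sugar-induced genes, such as GPT2 and APL3, 0 passed in limma, 1 at an unadjusted p under 0.05 and lower in long days. The median difference was 0.07 over the SnRK1 subunits, 0.21 over the bZIP genes and -0.31 over the sugar-induced genes.

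How far the 10 genes varied together was read from pairs. Over 45 pairs the median Pearson r of log2 levels was 0.64 in long days and 0.37 in continuous light, over 16 libraries each, given as a description because all pairs share libraries and time of day. In continuous light 12 pairs were below 0, the lowest being DIN10 and BT2 (-0.418). In long days 0 pairs were below 0, and DIN10 and AT3G15450 were the closest (0.973). Outside the 10, the profile over 32 libraries most like their mean was that of the GATA factor gene GATA4 (r = 0.916), followed by AT5G61590 (0.905), AT5G22920 (0.904), the sugar transporter gene STP1 (0.902) and RHA3A (0.901).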

How the data were processed

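Per the file headers, the authors deposited FPKM per transcript and library in 1 table per light regime; the submitters' processing notes name the build TAIR10, and no aligner or quantifier is named ("not given in the sources used here"). Both tables hold annotated and assembled transcripts (66968 in continuous light, 70053 in long days), assembled and merged apart, so tests of the difference between regimes used interaction terms. Reads per library are not given; the depth is unknown, and precision comes from the scatter between libraries. Annotated FPKM were summed per locus and tested as log2(FPKM + 1), on which low genes' folds are understated, keeping genes whose mean reached 1 FPKM, with limma 3.58.1 (eBayes with trend) in R 4.3.3. Errors are SE. The 24 h curve had a cosine and a sine term; dusk, dawn and cycle tests had 1 mean per hour of day. All 10 genes were named, other genes from fixed lists where the night contrast differed between regimes or a family was described. The genes and lists were chosen with earlier results of these data known. Gene spans in the files and the RefSeq assembly TAIR10.1 were the same for 32003 of 32020 loci. Scripts' tests were tested on simulated data. Alternatives are other pseudocounts, filters, scalings, gene sums, single cycles and leaving out each library.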

Additional observations from a re-analysis of the deposited data

Results flagged for a closer look

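Each of these values is a tested difference between the light regimes in limma fits over all 32 libraries; no explanation was weighed. The 24 h rhythm differed for ASN1 (adjusted p = 0.000441), DIN1 (0.000107), DIN10 (0.00217), BZIP1 (0.00172), AT3G15450 (0.00052) and EXL1 (0.00785). The night contrast was higher in long days for ASN1 (2.99, log2), DIN1 (2.95), DIN10 (2.65), BZIP1 (0.93), AT3G15450 (2.67) and EXL1 (2.25). The dusk step was higher in long days for ASN1 (3.04). The dawn step was lower in long days for ASN1 (-2.53), DIN1 (-3.06), DIN10 (-3.19), DRM1 (-2.10) and AT3G15450 (-2.72). A test for a single outlying value found 0 in 40 groups of 6 or 10 libraries. Each group spans hours of day with different levels, so this test could miss a library that departs from its neighbours in time, such as DRMH1 at 14 h in long days.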

How the results depend on the processing

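The counts are of the 10 genes called in limma. With the first cycle only or the second cycle only the night contrast gave 0 calls in continuous light and 0 in long days, from 8 libraries each, with every formerly called gene in the same direction. The long-day dusk count was 0 with a pseudocount of 0.1 FPKM and 0 with no filter on low values, and the dusk difference was 2 with a pseudocount of 5 FPKM. Late against early night in long days gave 1 call, EXL1, with a pseudocount of 5 FPKM, 1 with assembled transcripts at the locus alone and 1 with all that overlap it, a setting chosen after seeing the data. Second against first cycle in long days gave 3 with no filter. The rhythm amplitude of AT3G15450, long day minus continuous light, was -0.09 and became 0.0086 without the long-day library at 17 h and 0.0028 without that at 32 h, in a range of -0.27 to 0.0086 over all fits without 1 library; the rhythm difference itself stayed called in both. The cause of these changes was not tested.

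Leaving out 1 library at a time gave, for the rhythm, 7 to 7 calls in continuous light, 5 to 7 in long days and 6 to 7 for the difference; for the night contrast 2 to 4, 4 to 5 and 6 to 6; for dusk 1 to 1, 0 to 1 and 0 to 2; for dawn 0 to 0, 2 to 6 and 2 to 6; for late against early night 1 to 2 and 0 to 1; and for the cycles 0 to 2 and 2 to 4, in continuous light and long days. With sampling time as a replicate block the night difference gave 7 calls, DRM1 being added, but the numbers do not pair libraries: deviations at the same time correlated between regimes by -0.014 to 0.173 over 16 pairs. Over all genes the long-day night contrast called 2105 genes, 1276 after equal medians and 3030 with assembled transcripts at the locus alone; in continuous light 667, and 429 after quantile normalization. The 2 libraries behind each step at dusk or dawn limit those tests, and reads assigned to merged assembled genes limit DIN1, DIN10, DRMH1 and AKINBETA1.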
